A study of Mus musculus with 7 samples.

Results

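The purine, pyrimidine and folate synthesis genes are the enzymes that build, recycle and balance the nucleotides of RNA and DNA, and 33 of them were chosen by gene symbol in 6 pathway branches. A probe with a single gene symbol was present for 32 of the 33 (Impdh2 was not analysed here), of 19752 genes tested in all. The brightest probe of each gene was taken, and 2 of the 32 genes, Uck2 and Tk1, had more than 1 probe. RNA came from splenic natural killer (NK) cells, lymphocytes of innate immunity with cytotoxic granules, of male C57BL/6 mice aged 6 weeks. Negative selection (an EasySep kit) had enriched the cells, which were then kept in culture for 8 h with interleukin 2 (IL2) at 250 U/ml or untreated. The series holds 4 IL2 samples, numbered 1 to 4, and 3 untreated samples, numbered 2 to 4, on 1 Affymetrix Mouse Gene ST array each. Every sample title ends in the word reanalyzed, and the titles do not say what it marks. Values are log2 of the deposited intensity. No label says whether replicates were separate mice or cultures, so a p-value here reflects the spread among the 7 samples alone, and that spread may be technical.

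Resting lymphocytes recycle bases and nucleosides through salvage enzymes, and lymphocytes that are activated to grow turn to de novo synthesis. The purine ring is assembled step by step on phosphoribosyl pyrophosphate (PRPP), with formyl groups from folate, to give IMP, from which AMP and GMP branch. The pyrimidine ring is made first and then joined to PRPP to give UMP, from which CTP follows. Ribonucleotide reductase and thymidylate synthase then supply the deoxynucleotides for DNA replication. The transcription factor MYC is known to bind the E-box CACGTG near many nucleotide synthesis genes, and E2F factors are known to act on many genes of deoxynucleotide supply.

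Promoter windows from RefSeq (build GRCm38.p6, 250 bases before to 50 after each annotated start) were found for 30 of the 33 genes, 36 windows in all. They were searched on both strands for CACGTG, which reads the same on both, and for the E2F words TTTCCCGC, TTTCGCGC, TTTGCCGC and TTTGGCGC, and no window held both motifs. CACGTG was in 6 of the 36 windows (16.7%, over 5 genes: Atic, Impdh2, Nme1, Paics and Tyms), against 8.26% of the 19019 windows of genes tested on the array and 7.15% of all 32851 windows. An E2F word was in 2 windows (5.56%, Ppat and Prps2), against 3% of the windows of genes tested and 2.26% of all windows. A match is only a run of letters and no match says only that these letters are not in the window. The windows below are those of the 2 genes with the largest rises (Nme1 and Mthfd1) and of Ppat and Paics, whose starts lie close together on opposite strands. The last is that of Tyms, whose level differed little on a probe below the median signal of all genes. All windows run 5′ to 3′ on the strand of the gene, and capitals mark CACGTG or an E2F word.
Nme1, first window (chr11:93967976-93968275, minus strand): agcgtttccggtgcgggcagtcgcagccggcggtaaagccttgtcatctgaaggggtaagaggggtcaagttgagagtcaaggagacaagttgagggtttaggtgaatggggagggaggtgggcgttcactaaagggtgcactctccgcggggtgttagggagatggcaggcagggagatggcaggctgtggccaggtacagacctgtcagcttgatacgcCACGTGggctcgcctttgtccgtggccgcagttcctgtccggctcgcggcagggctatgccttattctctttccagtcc
Nme1, second window (chr11:93968223-93968522, minus strand): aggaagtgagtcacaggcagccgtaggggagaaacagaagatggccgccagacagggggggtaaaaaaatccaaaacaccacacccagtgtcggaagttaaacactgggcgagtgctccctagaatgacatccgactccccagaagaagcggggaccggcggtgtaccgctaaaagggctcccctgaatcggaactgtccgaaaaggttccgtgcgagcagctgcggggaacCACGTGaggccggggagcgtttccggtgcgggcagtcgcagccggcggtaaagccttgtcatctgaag
Mthfd1 (chr12:76254982-76255281, plus strand): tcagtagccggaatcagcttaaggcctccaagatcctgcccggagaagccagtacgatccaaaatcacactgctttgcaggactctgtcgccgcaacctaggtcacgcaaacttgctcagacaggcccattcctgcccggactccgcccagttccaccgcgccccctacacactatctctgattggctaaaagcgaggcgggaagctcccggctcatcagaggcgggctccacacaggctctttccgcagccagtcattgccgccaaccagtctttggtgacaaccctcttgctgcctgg
Ppat (chr5:76951529-76951828, minus strand): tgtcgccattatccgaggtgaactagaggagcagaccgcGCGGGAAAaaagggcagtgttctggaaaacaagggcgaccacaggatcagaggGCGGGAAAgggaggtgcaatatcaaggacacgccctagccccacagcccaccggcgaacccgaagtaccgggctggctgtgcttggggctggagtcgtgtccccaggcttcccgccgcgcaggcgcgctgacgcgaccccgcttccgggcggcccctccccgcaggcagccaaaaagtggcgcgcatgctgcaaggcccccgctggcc
Paics (chr5:76951052-76951351, plus strand): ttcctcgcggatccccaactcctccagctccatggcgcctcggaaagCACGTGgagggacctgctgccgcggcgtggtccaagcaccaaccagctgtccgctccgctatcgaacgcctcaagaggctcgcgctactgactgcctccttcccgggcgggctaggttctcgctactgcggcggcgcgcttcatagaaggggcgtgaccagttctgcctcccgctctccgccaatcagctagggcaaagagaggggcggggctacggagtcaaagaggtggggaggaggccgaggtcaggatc
Tyms (chr5:30073576-30073875, minus strand): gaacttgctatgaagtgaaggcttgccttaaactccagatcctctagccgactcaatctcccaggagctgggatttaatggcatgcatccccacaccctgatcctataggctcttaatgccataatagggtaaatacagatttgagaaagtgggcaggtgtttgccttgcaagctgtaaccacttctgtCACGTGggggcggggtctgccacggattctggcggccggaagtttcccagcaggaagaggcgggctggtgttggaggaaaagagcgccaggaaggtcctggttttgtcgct
The CACGTG of Nme1 began 29 bases before the start of the first window and 18 before that of the second, that of Tyms began 61 bases before and that of Paics 203 before. Both E2F hits of Ppat were TTTCCCGC on the opposite strand, beginning 211 and 158 bases before the start. The windows of Mthfd1, Cad, Samhd1 and Uck2 and both windows of Ctps held none of these words.

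On the IL2 arrays 4 of the 32 genes were higher and 0 lower at an adjusted p under 0.05 (limma, Benjamini-Hochberg over all genes). The 4 were Mthfd1, which supplies activated folate, Nme1, a nucleoside diphosphate kinase, Ctps, which makes CTP, and Samhd1, which breaks deoxynucleotides down. That is 12.5% of the genes higher, beside 2.08% higher and 0.901% lower (2.98% in either direction) among all 19752 genes. At an unadjusted p under 0.05, 18 of the 32 were higher and 2 lower (56.2% and 6.25%), beside 8.81% and 4.67% of all genes. Every IL2 array lay above every untreated array for 12 genes (37.5%) and below for 1 (3.12%), beside 6.25% and 3.38% of all genes. The log2 fold change (IL2 over untreated) was positive for 27 of the 32 (84.4%, beside 45.6% of all genes), with a median of 0.43 and a range of -0.60 to 1.40, against a median of -0.01 over all genes.

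These counts depended on single arrays. Without IL2 replicate 2, IL2 replicate 3 or untreated replicate 4 none of the 4 genes was called, and without IL2 replicate 4 or untreated replicate 3 only Ctps was. Over all genes 0.678%, 0.729% and 0.82% were higher without IL2 replicate 2, IL2 replicate 3 and untreated replicate 4, against 2.08% with all arrays. Without IL2 replicate 4 and untreated replicate 3 the shares were 0.805% and 0.901%. When the arrays were quantile normalized again, 11 of the 32 genes were higher and 2 lower, beside 3.51% and 2.92% of all genes (6.43% in either direction). Over all genes this gave 694 higher and 577 lower, against 410 higher and 178 lower without it. The median log2 fold change of the 32 genes was 0.30 after it, against 0.43 without it. IL2 replicate 1 was the lowest IL2 array for 27 of the 32 genes (the share over all genes was not counted). Without it 8 of the 32 were higher, beside 2.62% of all genes. The members' median difference from the untreated mean was 0.15 on IL2 replicate 1, 0.47 on replicate 2, 0.53 on replicate 3 and 0.56 on replicate 4. On the untreated arrays it was 0.08 (replicate 2), -0.16 (replicate 3) and 0.05 (replicate 4). The upper quartile of linear intensity over all probes was 291.45, 318.38, 341.61 and 350.35 on IL2 replicates 1 to 4. It was 317.75, 278.45 and 318.1 on untreated replicates 2 to 4. The part of these array-wide differences in the members' values was not tested.

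**Figure D1:**
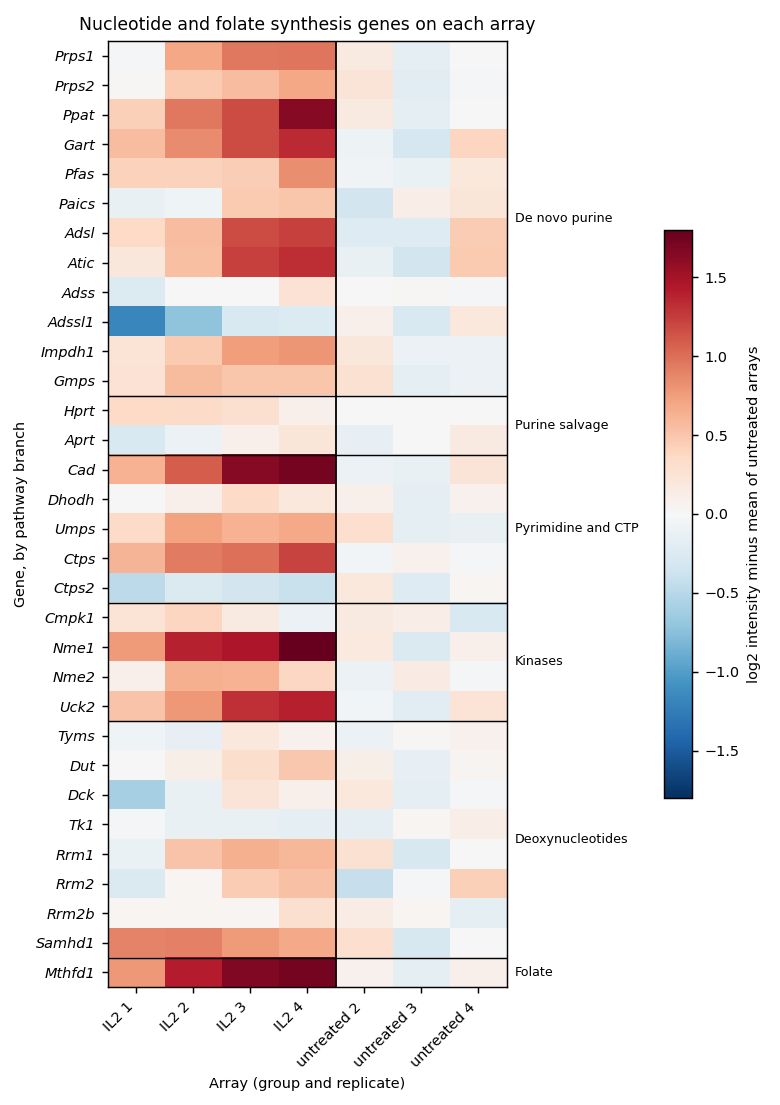
Each row is a gene, grouped by pathway branch, and each column an array, with IL2 arrays left of the line and untreated arrays right of it. Colour gives log2 intensity minus the mean of the untreated arrays. Ppat, Gart, Cad, Ctps, Nme1, Uck2 and Mthfd1 are red on the IL2 arrays, palest on IL2 replicate 1, Ctps2 and Adssl1 are blue on all 4, and most deoxynucleotide rows stay pale.

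Markers of cell types moved over the same arrays. Of 10 measured NK markers 6 were higher and 0 lower by limma, beside 2.08% higher and 0.901% lower of all genes. Their log2 fold changes were unequal, from 0.09 to 2.83, and the brightest markers weigh most in a sum. The summed intensity of the 10 was 21354 to 25992 on IL2 arrays, against 6139.5 to 9713.9 on untreated arrays. Macrophage and monocyte genes went the other way, 8 of 10 lower and none higher (summed intensity 3083.5 to 4979.6 on IL2 arrays, against 13466 to 13942 on untreated arrays), and of 8 B cell markers 1, Fcer2a (named after its value was seen), was lower (sum of the 8, 12397 to 13185 on IL2 arrays, against 14841 to 16786 on untreated arrays). Of 7 neutrophil markers 1, Mmp8 (likewise), was lower (sum of the 7, 4730.2 to 6948.5 on IL2 arrays, against 7950.2 to 11377 on untreated arrays). None of 7 T cell, 5 dendritic cell and 4 erythroid markers was called by limma. At an unadjusted p under 0.05, 1 dendritic cell marker was higher and 2 lower, and 0 of the T cell and erythroid markers. Over all genes 8.81% were higher and 4.67% lower at this p. Summed intensity was 1337.2 to 2387.1 on IL2 arrays against 1490.7 to 2292.6 on untreated arrays for T cells, 695.92 to 783.62 against 821.73 to 1034.3 for dendritic cells and 374.27 to 416.55 against 362.28 to 443.79 for erythroid cells. None of these markers was at 0, as RMA intensities are not, so the arrays do not show a cell type to be missing. The part of cell makeup in the values above and below was not tested. A change in the number of cells of a type and a change in marker RNA per cell cannot be told apart.

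Sample titles name the time for replicates 3 and 4 and not for replicates 1 and 2, though the labels give 8 h for all. Arrays of replicates 3 and 4, 2 IL2 and 2 untreated, are called time-titled here. The median log2 fold change of the 32 genes was 0.62 over the 4 time-titled arrays and 0.20 over the other 3, of which 1 was untreated. Over the same arrays the NK markers had medians of 1.65 and 1.12, and the macrophage and monocyte markers of -1.52 and -2.45. Over the 4 arrays, 1 of the 32 genes was higher (Mthfd1), beside 0.41% higher and 0.521% in either direction among all genes. Over the other 3, limma called 0 of them and 0 of all genes (at an unadjusted p under 0.05, 4 higher and 0 lower of the 32, and 1621 and 1009 of all genes). With title style as a block 8 were higher, beside 2.93% higher, 1.25% lower and 4.18% in either direction among all genes. What the title style marks is not stated in the labels.

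**Figure D2:**
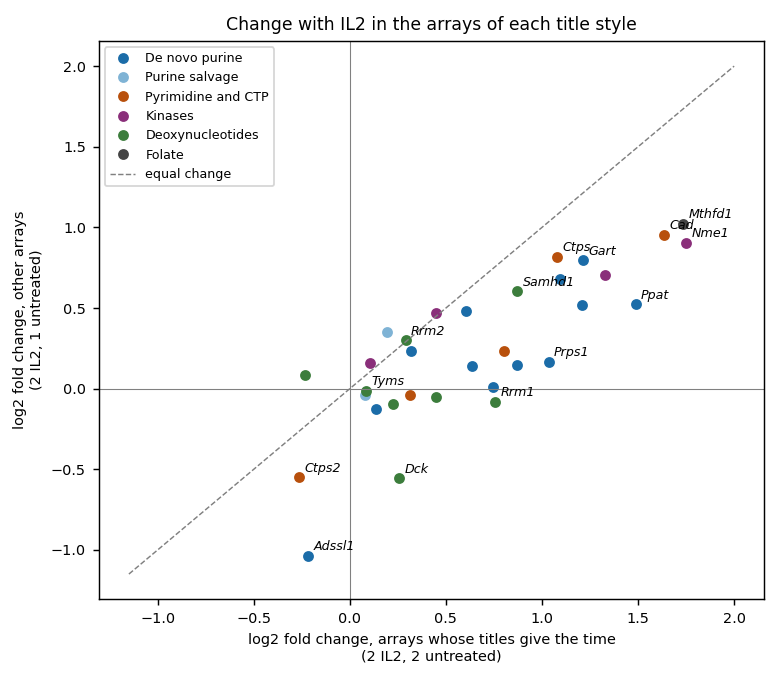
Each point is a gene, coloured by branch, with its log2 fold change (IL2 over untreated) over the 4 time-titled arrays on the x axis and over the other 3 arrays on the y axis. Most points lie below the dashed line of equal change, and Mthfd1, Nme1, Cad and Ctps lie far above 0 on both axes.

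None of the 12 de novo purine genes was called by limma in either direction. At an unadjusted p under 0.05, 9 of the 12 were higher and 1 lower, beside 8.81% and 4.67% of all genes, and the median log2 fold change was 0.54. With title style as a block Gart (limma adjusted p = 0.0334) and Adsl (limma adjusted p = 0.0393) were called higher, and after quantile normalization again Ppat (limma adjusted p = 0.0178), Gart (0.012), Pfas (0.0434) and Impdh1 (0.0432) were. Prps1 and Prps2 make PRPP, the sugar phosphate on which the purine ring is built. Log2 intensities of Prps1 were 7.91, 8.63, 8.89 and 8.90 on IL2 arrays (replicates 1 to 4, as in every such list), against 8.10, 7.77 and 7.94 on untreated arrays (replicates 2 to 4). Those of Prps2 were 8.86, 9.31, 9.39 and 9.53 on IL2 arrays, against 9.07, 8.63 and 8.81 on untreated arrays. For both genes IL2 replicate 1 lay among the untreated arrays and the other IL2 arrays lay above them. The log2 fold changes were 0.64 (SE 0.24, limma adjusted p = 0.28) for Prps1 and 0.44 (SE 0.18, limma adjusted p = 0.33) for Prps2.

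Ppat encodes the amidotransferase that commits PRPP to purine synthesis, and it had the largest difference of the branch. Its log2 intensities were 7.77, 8.29, 8.51 and 8.97 on IL2 arrays, against 7.50, 7.18 and 7.33 on untreated arrays. The groups did not overlap, and the log2 fold change was 1.05 (SE 0.26, limma adjusted p = 0.0902). Gart, a protein with several of the next activities, differed by 0.98 (SE 0.22, limma adjusted p = 0.0712) and Pfas, the FGAM synthase, by 0.53 (SE 0.13, limma adjusted p = 0.106), again without overlap. Adsl, which acts both before IMP and on the way to AMP, and Atic, which completes IMP, differed by 0.83 each (SE 0.27, limma adjusted p = 0.203 for Adsl, and SE 0.31, limma adjusted p = 0.286 for Atic), with overlap, as untreated replicate 4 lay above IL2 replicate 1 for both.

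Paics encodes the enzyme of the middle steps, and its mean differed less than that of its neighbour Ppat. RefSeq places the genes next to each other on opposite strands of chromosome 5, as the windows above show. Paics had log2 intensities of 10.34, 10.40, 10.94 and 10.98 on IL2 arrays, against 10.14, 10.59 and 10.69 on untreated arrays, and the groups overlapped. Its log2 fold change was 0.19 (SE 0.21, limma adjusted p = 0.789). The change of Ppat exceeded that of Paics by 0.86, a pair picked after its values were seen and therefore not tested. The log2 intensity of Ppat minus that of Paics, less its untreated mean, was 0.56, 1.03, 0.71 and 1.13 on IL2 arrays. On untreated arrays it was 0.50, -0.27 and -0.23, so untreated replicate 2 lay close to IL2 replicate 1.

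Beyond IMP the path divides towards GMP and AMP, and no gene of either side was called. Towards GMP, Impdh1, an IMP dehydrogenase, differed by 0.56 (SE 0.16, limma adjusted p = 0.132, no overlap) and Gmps, the GMP synthetase, by 0.46 (SE 0.13, limma adjusted p = 0.142). Towards AMP, Adss, an adenylosuccinate synthase, had log2 intensities of 8.90, 9.16, 9.16 and 9.41 on IL2 arrays, against 9.16, 9.18 and 9.13 on untreated arrays, with means that were nearly equal (log2 fold change 0.00, SE 0.12, limma adjusted p = 0.994). Its paralog Adssl1, known as the isozyme of muscle, had 7.51, 7.97, 8.40 and 8.45 on IL2 arrays, against 8.78, 8.40 and 8.88 on untreated arrays. Its log2 fold change was -0.60 (SE 0.24, limma adjusted p = 0.318), -0.22 over the time-titled arrays and -1.04 over the others. After quantile normalization again Adssl1 was called lower (limma adjusted p = 0.0417).

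The salvage enzymes Hprt and Aprt, which join free purine bases to PRPP, differed little. Hprt, which salvages hypoxanthine and guanine, had log2 intensities of 9.21, 9.21, 9.14 and 8.95 on IL2 arrays, against 8.86, 8.85 and 8.85 on untreated arrays. The untreated arrays were close together and all IL2 arrays lay above them, a difference of 0.27 (SE 0.09, limma adjusted p = 0.193). Aprt, which salvages adenine, differed by -0.02 (SE 0.14, limma adjusted p = 0.978).

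**Figure D3:**
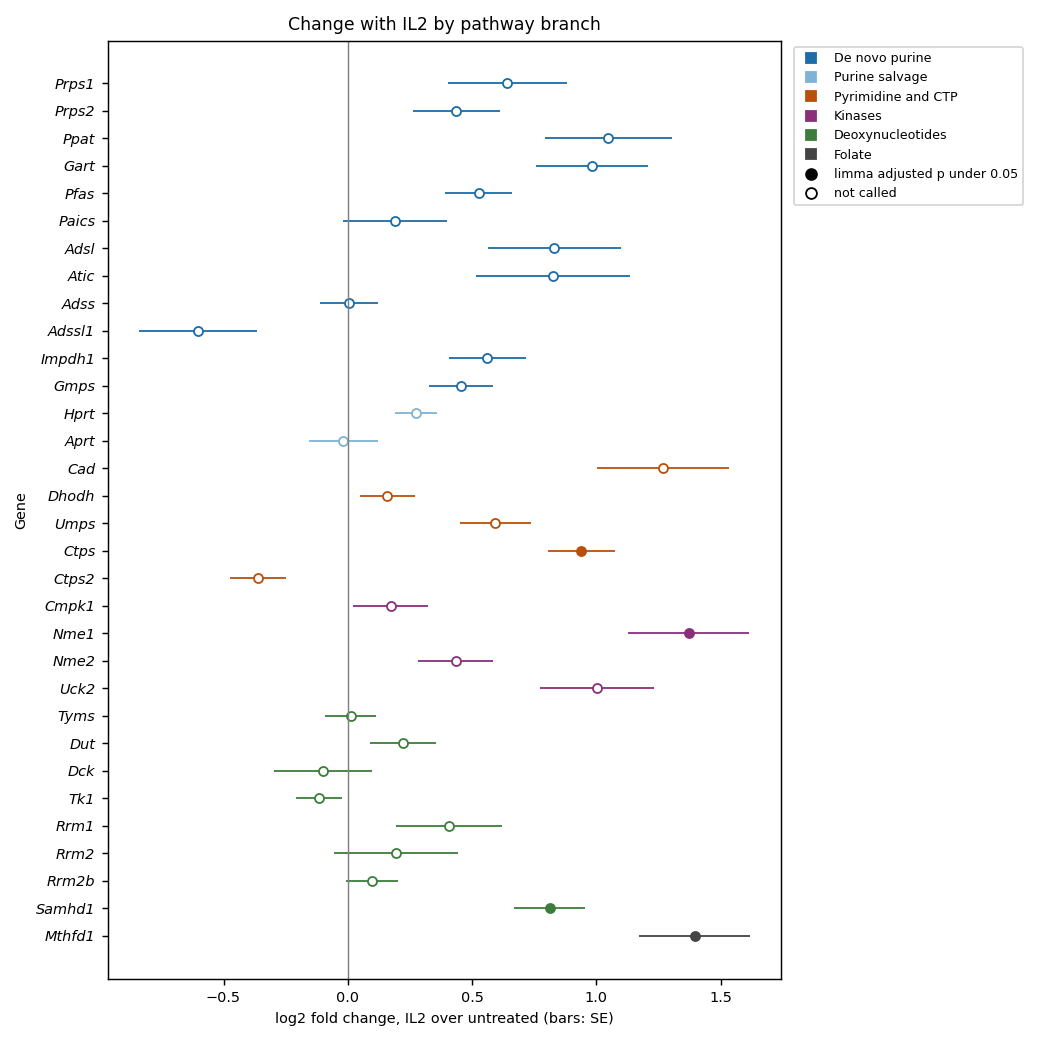
Each point is the log2 fold change of a gene (IL2 over untreated) with its SE as a bar, coloured by branch, filled where the limma adjusted p was under 0.05. Mthfd1, Nme1, Ctps and Samhd1 are filled, and the deoxynucleotide genes other than Samhd1 lie between -0.12 and 0.41.

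In the pyrimidine branch Ctps rose, with 1 of 5 genes called higher and 0 lower (20% higher, beside 2.08% higher and 0.901% lower of all genes). Ctps encodes the CTP synthase that proliferating lymphocytes are known to need in humans. Its log2 intensities were 7.05, 7.36, 7.42 and 7.64 on IL2 arrays, against 6.39, 6.50 and 6.40 on untreated arrays. The groups were well apart, with a log2 fold change of 0.94 (1.92-fold, SE 0.14, limma adjusted p = 0.0131), 1.08 over the time-titled arrays and 0.82 over the others. Leaving out IL2 replicate 2, IL2 replicate 3 or untreated replicate 4 ended the call (limma adjusted p up to 0.0751), while the fold change stayed between 0.85 and 1.05 on the log2 scale with each array left out.

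The other genes of the branch did not pass, though after quantile normalization again Cad (limma adjusted p = 0.00853) and Umps (limma adjusted p = 0.0339) were called higher. Cad, the large protein with the first activities of pyrimidine synthesis, had log2 intensities of 8.51, 8.97, 9.53 and 9.61 on IL2 arrays, against 7.79, 7.76 and 8.12 on untreated arrays. The groups did not overlap, and the difference of 1.27 (limma adjusted p = 0.0523, SE 0.27) fell just short of the threshold. Umps, which makes UMP, differed by 0.59 (SE 0.14, limma adjusted p = 0.0896, no overlap) and Dhodh, the mitochondrial dihydroorotate dehydrogenase, by 0.16 (SE 0.11, limma adjusted p = 0.641). Ctps2, the second CTP synthase, had 9.11, 9.32, 9.26 and 9.18 on IL2 arrays, against 9.77, 9.35 and 9.62 on untreated arrays. It was the only one of the 32 genes with all IL2 arrays below all untreated arrays, by a narrow gap, and its log2 fold change was -0.36 (SE 0.11, limma adjusted p = 0.188; 0.0153 after quantile normalization again).

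Among the kinases Nme1 rose, with 1 of 4 genes called higher and 0 lower (25% higher, beside 2.08% higher and 0.901% lower of all genes). Nme1 encodes a nucleoside diphosphate kinase, which makes nucleoside triphosphates. Its log2 intensities were 8.29, 8.90, 8.97 and 9.40 on IL2 arrays, against 7.69, 7.26 and 7.61 on untreated arrays. All IL2 arrays lay above all untreated arrays, with a log2 fold change of 1.37 (2.59-fold, SE 0.24, limma adjusted p = 0.029), 1.75 over the time-titled arrays and 0.90 over the others. The call was kept only without IL2 replicate 1, and the other adjusted p-values with 1 array left out reached 0.12. Its paralog Nme2 had 8.55, 9.11, 9.10 and 8.84 on IL2 arrays, against 8.36, 8.61 and 8.43 on untreated arrays. IL2 replicate 1 lay within the untreated range, and the log2 fold change was 0.43 (SE 0.15, limma adjusted p = 0.237). The genes are close in sequence, so cross-hybridisation between them cannot be told apart from their own signal here. Uck2, a uridine-cytidine kinase of pyrimidine salvage, differed by 1.00 without overlap (SE 0.23, limma adjusted p = 0.0706), with 0.62 for its dimmer probe and a call after quantile normalization again (limma adjusted p = 0.0144), and Cmpk1, the UMP/CMP kinase, by 0.17 (SE 0.15).

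**Figure D4:**
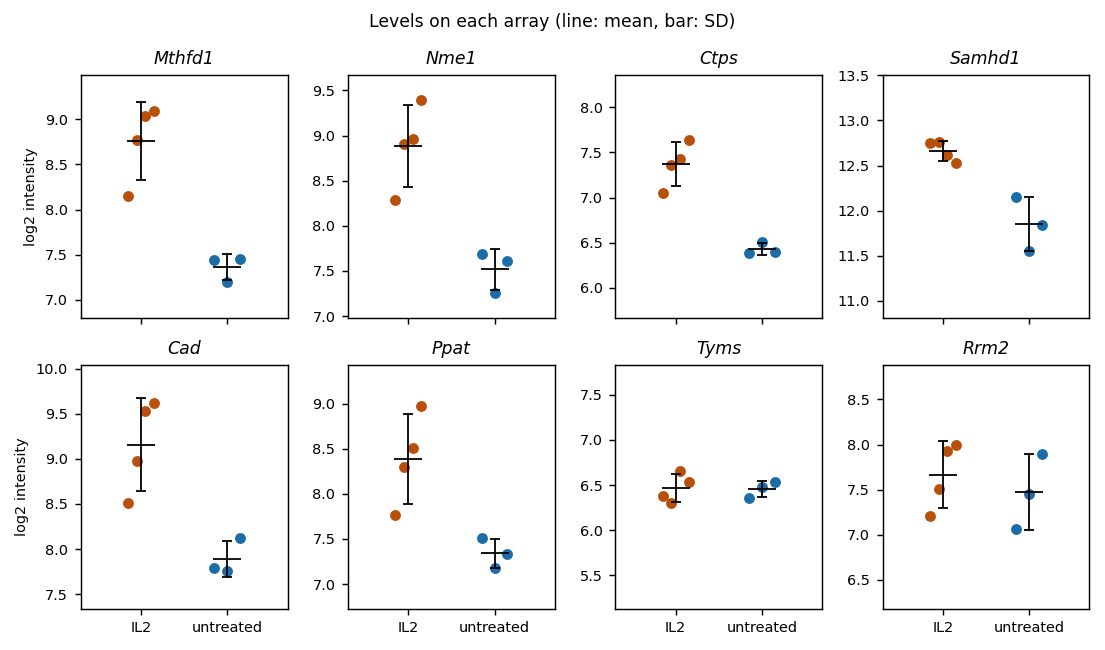
Points are log2 intensities on single arrays, IL2 left of untreated, with the mean as a line and the SD as a bar, and each panel spans the same range of log2 units. The 2 groups are apart for Mthfd1, Nme1, Ctps, Samhd1, Cad and Ppat and overlap for Tyms and Rrm2.

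Most genes that supply deoxynucleotides differed little. Of 8 genes in this branch 1 was called higher and 0 lower (12.5% higher, beside 2.08% higher and 0.901% lower of all genes). The one called was Samhd1, whose product hydrolyses deoxynucleoside triphosphates. Samhd1 is also known as an interferon-stimulated gene and as highly expressed in myeloid cells. Its log2 intensities were 12.75, 12.76, 12.61 and 12.53 on IL2 arrays, against 12.15, 11.56 and 11.85 on untreated arrays. All IL2 arrays lay above all untreated arrays, with a log2 fold change of 0.81 (1.76-fold, SE 0.14, limma adjusted p = 0.0269), 0.87 over the time-titled arrays and 0.60 over the others. The call was kept only without untreated replicate 2, and the other adjusted p-values with 1 array left out reached 0.115.

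Ribonucleotide reductase reduces ribonucleotides, with Rrm1 as its large subunit, Rrm2 as the small subunit of dividing cells and Rrm2b as that of resting cells. Rrm2 had log2 intensities of 7.21, 7.51, 7.93 and 8.00 on IL2 arrays, against 7.06, 7.45 and 7.90 on untreated arrays. The groups overlapped almost entirely (log2 fold change 0.19, SE 0.25, limma adjusted p = 0.83). Rrm2b had 7.71, 7.71, 7.71 and 7.95 on IL2 arrays, against 7.80, 7.71 and 7.50 on untreated arrays (log2 fold change 0.10, SE 0.11, limma adjusted p = 0.782). Its values on 3 IL2 arrays were exactly equal, which lowers the measured spread, and Rrm2b was the 1 gene of the 32 with equal values on arrays of a group. Rrm1 differed by 0.41 (SE 0.21, limma adjusted p = 0.496), 0.76 over the time-titled arrays and -0.08 over the others. Its log2 intensities were 8.23, 8.86, 8.98 and 8.94 on IL2 arrays, against 8.63, 8.06 and 8.35 on untreated arrays.

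Of the remaining genes of the branch, Tyms, the thymidylate synthase, had a difference of 0.01 (SE 0.10, limma adjusted p = 0.982), and Dut, the dUTPase that feeds it, had 0.22 (SE 0.13, limma adjusted p = 0.577). The salvage kinases Tk1, for thymidine, and Dck, for deoxycytidine, had -0.12 (SE 0.09) and -0.10 (SE 0.20), and the second probe of Tk1 had -0.06. All 4 overlapped between the groups. The branch median was 0.15, against 0.54 for de novo purine, 0.59 for pyrimidine and CTP and 0.72 for the kinases, and these differences between branches were not tested.

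Mthfd1 had the largest rise of the 32 genes. It encodes the cytosolic enzyme that makes the formyl and methylene forms of tetrahydrofolate used for purines and for thymidylate. Its log2 intensities were 8.15, 8.77, 9.03 and 9.09 on IL2 arrays, against 7.44, 7.20 and 7.46 on untreated arrays. The lowest IL2 array was above the highest untreated array, and the log2 fold change was 1.40 (2.63-fold, SE 0.22, limma adjusted p = 0.0182). It was 1.73 over the time-titled arrays (limma adjusted p = 0.0445) and 1.02 over the others. With 1 array left out the call was kept only without IL2 replicate 1, the other adjusted p-values reached 0.0902, and the fold change stayed between 1.29 and 1.60 on the log2 scale.

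The 5 measured pairs of paralogs gave differences of 0.09 to 1.30, none past the test. The difference between the log2 fold changes of each of 5 pairs was set against exact permutations of the arrays, for which 0.0571 is the smallest two-sided p that 4 against 3 arrays allow, so that no pair could pass 0.05. Ctps exceeded Ctps2 by 1.30, and the pair's difference lay higher on all 4 IL2 arrays than on every untreated array (exact permutation p = 0.0571, 0.143 adjusted over the 5 pairs). Nme1 exceeded Nme2 by 0.94, also with no overlap (exact permutation p = 0.0571, 0.143 adjusted). Adss exceeded Adssl1 by 0.61 (exact permutation p = 0.114, 0.191 adjusted), and 3 of 4 IL2 arrays lay above all untreated arrays. Prps1 exceeded Prps2 by 0.21 (exact permutation p = 0.171, 0.214 adjusted) and Rrm2 exceeded Rrm2b by 0.09 (exact permutation p = 0.8).

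**Figure D5:**
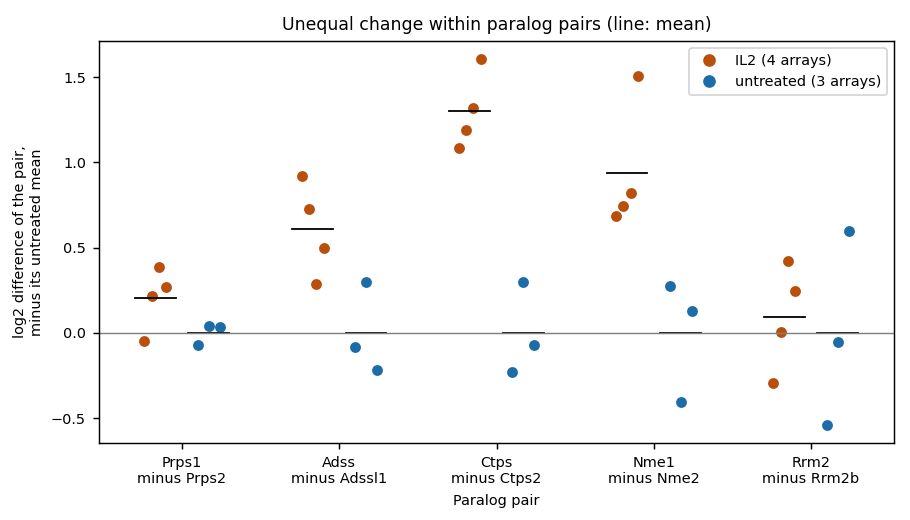
Points are, for each array, the log2 intensity of the first gene minus that of the second, less the mean of this over the untreated arrays, with IL2 left of untreated and lines for the means. IL2 and untreated arrays are apart for Ctps minus Ctps2 and Nme1 minus Nme2 and overlap for the other 3 pairs.

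Other genes of nucleotide and folate metabolism were taken from a list of 66, of which 60 were measured. Of the 60, 8 rose and 0 fell (13.3% higher, beside 2.08% of all genes), with a median log2 fold change of 0.10. Folate and serine one-carbon genes gave 3 of 16. They were Psat1, of serine synthesis (1.20, SE 0.17, limma adjusted p = 0.0133), Mthfd1l, which makes formate in mitochondria (0.99, SE 0.18, limma adjusted p = 0.0309) and Slc19a1, the reduced folate carrier (0.87, SE 0.14, limma adjusted p = 0.0172). Slc19a1 was 8.88, 9.16, 9.26 and 9.48 on IL2 arrays, against 8.28, 8.32 and 8.37 on untreated arrays, which were close together. These calls were kept with 3 (Psat1), 1 (Mthfd1l) and 2 (Slc19a1) of the 7 arrays left out in turn.

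Among other kinases and salvage enzymes 3 of 19 rose (15.8%, beside 2.08% of all genes), each by more than any of the 32 genes. Dctd, the deaminase that turns dCMP into dUMP, the substrate of thymidylate synthase, was 9.13, 8.76, 9.01 and 8.78 on IL2 arrays, against 7.28, 7.12 and 7.02 on untreated arrays. The groups lay far apart, with a rise of 1.78 on the log2 scale (3.44-fold, SE 0.12, limma adjusted p = 0.000581). Upp1, a uridine phosphorylase, was 8.20, 8.28, 8.43 and 8.03 on IL2 arrays, against 6.81, 6.60 and 6.07 on untreated arrays, a rise of 1.74 on the log2 scale (3.35-fold, SE 0.18, limma adjusted p = 0.00288). The calls of Dctd and Upp1 were kept whichever of the 7 arrays was omitted. Cmpk2, a mitochondrial UMP/CMP kinase known to be induced by interferon, rose by 1.70 (SE 0.27, limma adjusted p = 0.0186), a call kept with 2 of the 7 arrays left out.

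Of 14 breakdown genes 2 rose (14.3%, beside 2.08% of all genes). Entpd1, an ectonucleotidase of the cell surface, rose by 1.33 (SE 0.27, limma adjusted p = 0.0444) and Nt5c3, a pyrimidine nucleotidase, by 1.12 (SE 0.22, limma adjusted p = 0.0446). These calls were kept with 1 and 2 of the 7 arrays left out. None of 7 PRPP supply genes and 4 nucleoside transporters was called by limma. At an unadjusted p under 0.05, 1 PRPP supply gene was higher and 2 lower, and 1 transporter was higher and 0 lower. Over all genes 8.81% were higher and 4.67% lower at this p. The largest differences were in Pgd, of the pentose phosphate pathway (-0.82, SE 0.22, limma adjusted p = 0.115), and in the equilibrative nucleoside transporter Slc29a1 (0.57, SE 0.23, limma adjusted p = 0.335).

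For comparison, 9 of 20 ribosome biogenesis genes rose (45%) and 0 fell (median 0.93), beside 2.08% higher and 0.901% lower of all genes. Among the 9 were Polr1b (1.48) of RNA polymerase I and Dkc1 (1.40), the pseudouridine synthase of small nucleolar particles. Of 20 genes of the G1-S step and DNA replication 1 was called higher (5%) and 0 lower (median 0.29). The gene called was Pcna (0.39, SE 0.07, limma adjusted p = 0.0318), the sliding clamp of DNA polymerase. At an unadjusted p under 0.05, 9 of the 20 G1-S genes (45%) and 19 of the 20 ribosome biogenesis genes (95%) were higher and 0 lower. Over all genes 8.81% were higher and 4.67% lower at this p. The log2 fold change was positive for all 20 genes of each list, beside 45.6% of all genes. With 1 array left out in turn, 1 to 11 of the ribosome biogenesis genes and 0 or 1 of the G1-S genes were called higher. Over all genes 0.678% to 2.62% were higher in these fits. Dkc1 was kept in all 7 fits and Polr1b and Pcna in 1 each. The 32 nucleotide and folate genes, with 4 called (12.5%) and a median of 0.43, lay between these lists by both measures. By the share with a positive change (84.4%) they lay below both lists. These are descriptions without a test. Myc was 10.03, 10.43, 10.79 and 10.65 on IL2 arrays, against 8.45, 8.10 and 8.44 on untreated arrays, and IL2 replicate 1 was again the lowest IL2 array. Over the time-titled arrays the log2 fold change of Myc was 2.44, and over the others it was 1.78.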

How the data were processed

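Gene expression was measured on 7 Affymetrix Mouse Gene ST arrays. The submitters' processing notes name RMA and Affymetrix Power Tools, with which the authors made the deposited intensity values. Versions, and which arrays were normalized together, are not given in the sources used here. Linear intensities were converted to log2 without an offset, and no filter on signal was set. Of 24922 probes, 21425 had 1 gene symbol, 1399 several and 2098 none. Those with 1 were used, with the brightest probe per gene by the mean of all 7 arrays (19752 genes). Groups came from the sample titles. Limma 3.58.1 in R 4.3.3 was fitted with 1 factor over the 7 arrays (eBayes defaults, 7.68 degrees of freedom in total), with Benjamini-Hochberg correction over all genes and a threshold of 0.05. Exact permutation tests used scipy 1.17.1. The ± or SE given is over arrays, and their number limits the precision.

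The members, lists, tests and rule for named genes were chosen with earlier results of these data known. All members are accounted for. Called genes, members of paralog pairs and the largest change of each branch are given on every array. Of the other pathway genes, the called ones are named, or else the single gene of a group that differed most, and of the comparison lists Myc and the 2 called genes with the largest change. Marker lists are given as counts and sums, with a median or a range for some. A planned pair, Impdh2 with Impdh1, and protein identities of paralogs were not analysed here. Deviations from the group mean correlated at 0.46, -0.30 and 0.31 between same-numbered arrays of both groups (replicates 2, 3 and 4). Differently numbered arrays ranged from -0.48 to 0.45. The numbers were not taken to pair the arrays, though so few values cannot settle whether they were paired. Alternatives were blocks for replicate number and title style, each title style alone, a filter at the median signal, quantile normalization again, centring, robust eBayes with a trend, quality weights per array, the mean of all probes, and each array left out in turn. On simulated data over 19752 genes with 4 against 3 arrays, the fit recovered 83% of genes changed by 1 and 99% of those changed by 2 on the log2 scale, and 6.67% of its calls were false. The simulated noise was independent between genes, with no shift shared by the genes of an array. These shares therefore need not hold for the arrays here.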

Additional observations from a re-analysis of the deposited data

Results flagged for a closer look

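Among the 4 IL2 arrays, a single array stood far from the others for 3 genes and 1 pair, by the ratio of its gap to the range of the group (Dixon's criterion at the level that chance passes in about 1 of 20 groups). In all, 32 genes and 5 pairs were examined. Pfas was 8.77 on IL2 replicate 4, against 8.34 to 8.37 on the other IL2 arrays. Rrm1 was 8.23 on IL2 replicate 1, against 8.86 to 8.98 on the others. Rrm2b was 7.95 on IL2 replicate 4, against exactly 7.71 on the others, whose equal values make the ratio 1. The difference of Nme1 and Nme2, less its untreated mean, was 1.51 on IL2 replicate 4, against 0.68 to 0.82 on the others.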

How the results depend on the processing

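Untimed arrays are those whose titles do not name the time. The sign of the median log2 fold change of the 32 genes held in all 17 alternatives. The median was 0.43 over all arrays, 0.35 to 0.56 with 1 array left out and 0.30 after quantile normalization again. Its value moved by more than the spread of the IL2 arrays (SD 0.19, IL2 replicate 1 included) only over the untimed arrays (0.20). The number of genes called is far less stable. It was 12 higher with the replicate block (2.8% of all genes), 8 with the title style block (2.93%), 9 of 31 at or above the median signal (5.85%), 11 (and 2 lower) after quantile normalization again (3.51%), 7 with centred arrays (2.39%) or array quality weights (2.8%), 1 over the time-titled arrays, 0 over the others, and 0 to 8 with 1 array left out (0 lower each time). It was 5 with robust eBayes with a trend (2% of all genes), 4 with the mean of all probes (2.09%) and 4 without untreated replicate 2 (2.14%). The 4 without untreated replicate 2 were Gmps, Umps, Ctps and Samhd1, so Nme1 and Mthfd1 were not among them. Without the named array the number was 0 for IL2 replicate 2, IL2 replicate 3 or untreated replicate 4. The cause was not tested. Over all genes it was 694 higher and 577 lower after quantile normalization again, 81 and 22 over the time-titled arrays, 0 and 0 over the others, and 134 to 517 higher and 65 to 152 lower with 1 array left out.

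No gene that changed sign was called in the fit of all 7 arrays. Aprt was 0.0693 with the replicate block, 0.0324 with the title style block, 0.0811 over the time-titled arrays, 0.0125 with centred arrays and 0.0016 with array quality weights, and Dck was 0.0638, 0.256 and 0.0192 with the replicate block, over those arrays and with array weights. Over the untimed arrays Dck kept its sign (-0.555). Over the same untimed arrays Adss was -0.129, Dhodh -0.0379, Tyms -0.0122, Dut -0.0529, Tk1 0.0826, Rrm1 -0.0819 (0.407 over all arrays) and Rrm2b -0.0943. Adss was also -0.124 after quantile normalization again. With 1 array left out the ranges were -0.0793 to 0.0898 for Adss, -0.0981 to 0.0693 for Aprt, -0.05 to 0.0656 for Tyms, -0.209 to 0.0638 for Dck and -0.0129 to 0.407 for Rrm2. Among paralog pairs only Rrm2 minus Rrm2b changed sign (-0.18 to 0.39 with 1 array left out), and Ctps minus Ctps2 stayed between 1.18 and 1.45. The replicate block kept the 4 calls and added Prps1, Ppat, Gart, Pfas, Adsl, Cad, Umps and Uck2. IL2 replicate 1 has no untreated partner, so the block also removes that array, and the fold changes equal those without it (8 calls).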
